A study of Homo sapiens with 12 samples.

Results

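The 10 genes described here form the receptor end and the first signalling steps of the cytokine pathway used by blood progenitors. They are the receptor chains EPOR, CSF2RB, FLT3, IL6ST and IL2RG, the kinase JAK2, the transcription factors STAT5A and STAT5B, and the inhibitors SOCS2 and CISH. They were chosen by symbol, and each symbol named 1 row in every file, so that 10 of the 56266 listed genes were followed across stages and genotypes. RNA-Seq of 10 libraries was used, 2 in each of 5 groups, all grown from H1, an established human embryonic stem cell (hESC) line. The groups were undifferentiated GATA2-/- hESCs, wild-type (WT) and GATA2-/- hemogenic endothelium (HE, sorted as CD34+CD31+CD43- at day 8), and WT and GATA2-/- hematopoietic progenitor cells (HPCs, sorted as CD34+CD43+ at day 9). HEs and HPCs came from co-culture with OP9, a mouse stromal line. The GATA2-/- cells are 1 clone, in which TALENs placed a neomycin cassette driven by the PGK promoter into exon 3 of both GATA2 alleles, so that clone and genotype cannot be told apart. The 2 WT hESC samples were not analysed here, so every comparison with hESCs is within GATA2-/-.

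Cytokine receptors of this kind have no kinase of their own. When the ligand brings the chains together, Janus kinases bound to their tails phosphorylate each other and the receptor, STAT proteins dock, are phosphorylated and move to the nucleus as dimers, and their targets include SOCS-family genes such as CISH, whose proteins dampen the receptor. EPOR with JAK2 and STAT5 is the axis that keeps erythroid progenitors alive, CSF2RB serves IL-3, IL-5 and GM-CSF, IL6ST (gp130) serves the IL-6 family, IL2RG is the common gamma chain of lymphoid cytokines, and FLT3 is a receptor tyrosine kinase of early progenitors. GATA2 is a zinc finger factor of early blood progenitors that binds GATA motifs.

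The promoters of CISH and EPOR are shown because CISH is a textbook STAT5 target and EPOR a textbook GATA-factor target, and because they were the only members whose promoter held the respective motif. The sequences are RefSeq promoters of GRCh38.p14, from 250 bases before to 50 bases after the start of the gene. The table holds 8 of the 10 members in 13 entries, and CSF2RB and SOCS2 are not among them. The STAT motif searched was TTCNNNGAA, which reads the same on both strands, and the GATA words were AGATAA and TGATAA and, with G last, AGATAG and TGATAG, on either strand. In the lines below the motif matches are in capitals.
CISH promoter, chr3:50611725-50612024, minus strand: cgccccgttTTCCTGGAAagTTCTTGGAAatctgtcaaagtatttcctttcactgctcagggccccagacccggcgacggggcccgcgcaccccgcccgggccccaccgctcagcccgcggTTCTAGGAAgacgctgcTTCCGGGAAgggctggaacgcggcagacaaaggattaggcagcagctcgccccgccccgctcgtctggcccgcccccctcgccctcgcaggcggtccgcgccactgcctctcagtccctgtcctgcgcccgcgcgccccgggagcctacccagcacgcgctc
EPOR promoter, chr19:11384265-11384564, minus strand: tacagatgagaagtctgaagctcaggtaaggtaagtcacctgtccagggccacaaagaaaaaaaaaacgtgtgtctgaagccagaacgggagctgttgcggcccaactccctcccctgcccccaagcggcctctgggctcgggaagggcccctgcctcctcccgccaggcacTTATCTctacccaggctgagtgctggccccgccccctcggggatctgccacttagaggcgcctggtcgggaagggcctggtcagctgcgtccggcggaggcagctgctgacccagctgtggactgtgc
The CISH promoter held 4 STAT matches that did not overlap, TTCCTGGAA beginning 241 bases before the start, TTCTTGGAA at 230, TTCTAGGAA at 129 and TTCCGGGAA at 112. At least 1 STAT match was present in 7.66% of the 35116 promoters in the table, and at least 4 in 7 of them (0.0199%). The EPOR promoter held 1 GATA match, TTATCT on the printed strand, which began 78 bases before the start. GATA words were present in 24.97% of all promoters. A match in these letters is a description and not a binding site.

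Expression is given in TPM, a transcript level scaled for gene length and to the same total in every library, so levels of different genes can be set side by side. TPM keeps no read depth, so no counting error can be given, and precision was judged only from the 2 libraries of each group. The deposited values summed to 998299 to 999106 per library, and 16004 to 17335 genes reached TPM 1. Genes of the mitochondrial genome made up 14.8% and 15.1% of the TPM in GATA2-/- HPCs against 6.29% to 9.61% in the other 8 libraries. Summed over 8 pluripotency genes, TPM was 5522 to 6278 in hESCs and at most 377 elsewhere. Summed over 12 endothelial genes, TPM was 3934 to 4808 in HEs and 998 to 1299 in HPCs. Over 12 erythroid genes the sum was 120 to 194 in WT HEs, 34.4 to 49.4 in GATA2-/- HEs and 5594 to 16809 in HPCs. PTPRC, the CD45 gene of blood cells, was listed at 0 in the HEs of both genotypes. It was low elsewhere too, at 0.68 to 3.09 in HPCs and 0.56 and 3.06 in hESCs. Summed over 9 pan-hematopoietic genes, PTPRC among them, TPM was 791 to 1206 in HEs and 722 to 982 in HPCs. That sum includes CD34, at 605.4 to 1059.6 in HEs and 113.77 to 241.75 in HPCs. GATA2 itself was at 106.8 and 78.03 in WT HEs, 110.93 and 94.06 in GATA2-/- HEs, 290.08 and 204.17 in WT HPCs, and 112.47 and 83.82 in GATA2-/- HPCs. A transcript of the disrupted locus still counts toward that value, so it does not check the labels. Tests used limma on log2(TPM + 1) over the 21543 genes that reached TPM 1 in 2 or more libraries, with all 10 libraries in 1 fit and Benjamini-Hochberg adjustment over all tested genes. A log2 fold change on this scale understates the change of a low gene. The labels do not say that replicates came from separate cultures, so p-values measure the spread between these samples.

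From HE to HPC, the levels of the pathway's members were higher on average in the HPCs of both genotypes, but few passed the test. STAT5A rose in WT, and EPOR, IL6ST and SOCS2 rose in GATA2-/-. In WT that is 1 of the 9 tested members, where 3.32% of all tested genes rose, and in GATA2-/- it is 3 of 9, where 5.5% rose. All 9 tested members had a fold change above 0 in both genotypes, as did 33.5% of all tested genes. The median member was higher in HPCs by 0.69 on the log2 scale in WT and by 0.99 in GATA2-/-, against -0.01 and 0.03 over all tested genes. EPOR, IL2RG, JAK2, STAT5A and SOCS2 were higher in each of the 4 HPC libraries than in each of the 4 HE libraries, a separation seen in 9.48% of all tested genes. IL2RG entered the test only through its HPC values, so its place in these counts is not independent of the filter. The members were also chosen with earlier results of these data known, so the counts are not independent of that choice. Cells of each gate were measured in bulk, so more cells of a type and more RNA per cell cannot be told apart. The summed erythroid, megakaryocyte and myeloid markers moved in the same direction as these members, and their part in the change was not tested.

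**Figure D1:**
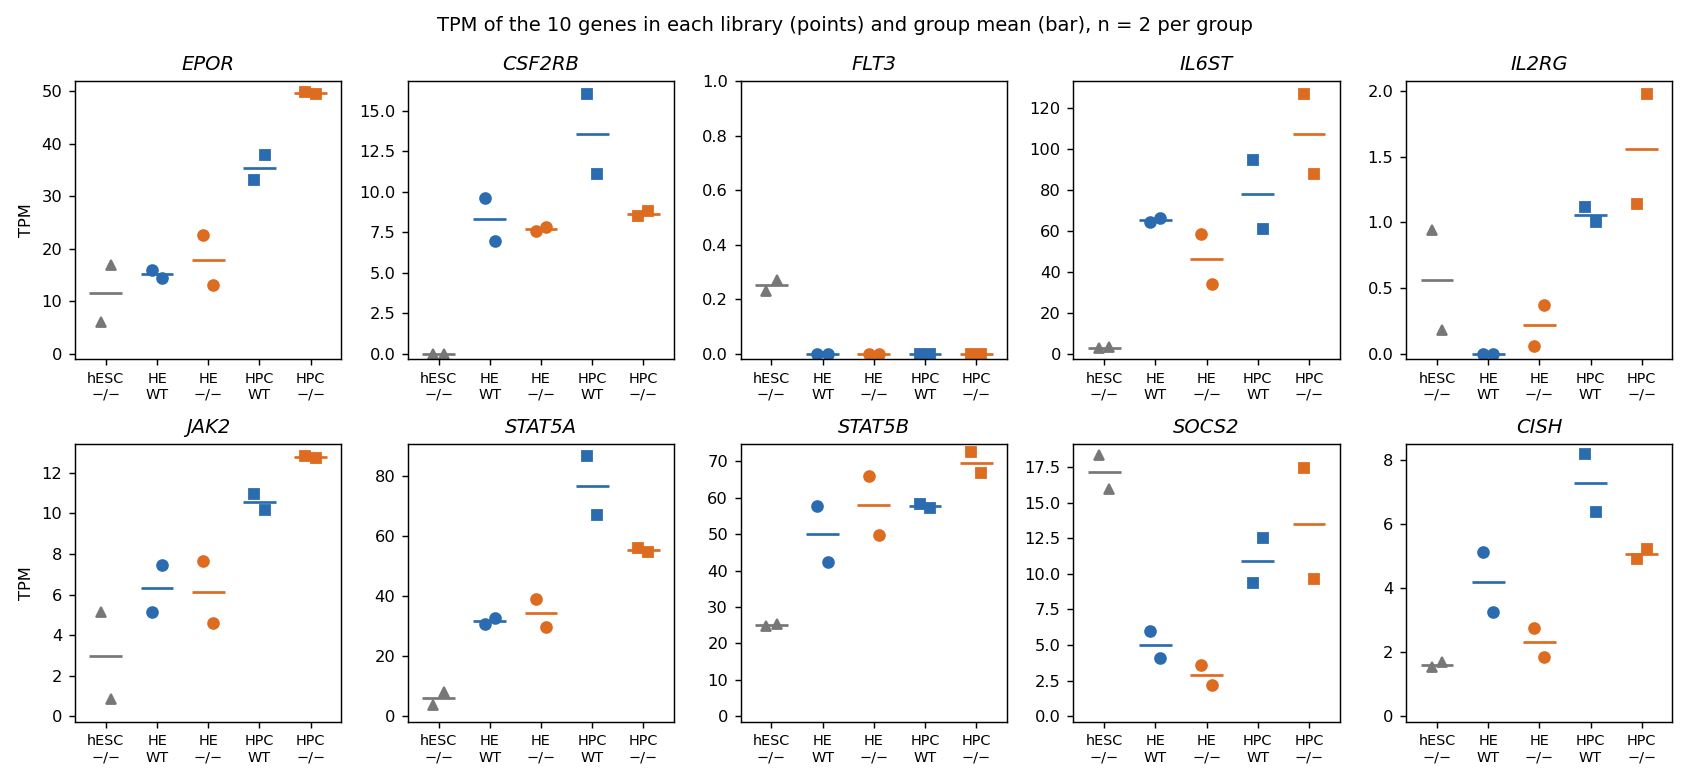
TPM of each of the 10 genes (vertical axis, from 0, scaled per gene) in the 10 libraries (points) of the 5 groups on the horizontal axis, with the mean of 2 libraries as a bar. EPOR, JAK2, STAT5A and SOCS2 lie higher in the 4 HPC libraries than in the 4 HE libraries, SOCS2 is at 15.95 and 18.33 in hESCs, and FLT3 never exceeds 0.27.

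EPOR, the receptor for erythropoietin (ENSG00000187266, chromosome 19, positions 11487883 to 11495018, minus strand, in GRCh37, the build behind the files), was present at every stage. Its TPM was 6.09 and 16.86 in GATA2-/- hESCs, 15.92 and 14.37 in WT HEs, 22.56 and 12.99 in GATA2-/- HEs, 33.03 and 37.85 in WT HPCs, and 49.77 and 49.43 in GATA2-/- HPCs. The HE values overlapped those of hESCs, all 4 HPC values were above them, and both GATA2-/- HPC values were above both WT HPC values. Between HE and HPC the log2 fold change was 1.48 in GATA2-/- (standard error 0.41, adjusted p = 0.0472) and 1.17 in WT (standard error 0.41, adjusted p = 0.12). The call in GATA2-/- lay close to the threshold: adjusted p ranged up to 0.251, without GATA2-/- HE replicate 2, and leaving out any HE or HPC library of either genotype ended it. EPOR rose from hESC to HPC by 2.17 on the log2 scale (standard error 0.41, adjusted p = 0.00406). The 12 erythroid markers, the class of cells in which EPOR is best known, summed to 5594 to 15045 in WT HPCs and 8540 to 16809 in GATA2-/- HPCs, ranges that overlap. Its ligand gene EPO was at most 0.9 in HEs and HPCs.

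CSF2RB, the beta chain shared by IL-3, IL-5 and GM-CSF receptors (ENSG00000100368, chromosome 22 from 37309670 to 37336481, plus strand), was listed at 0 in both hESC libraries and appeared in HE. In WT HEs its TPM was 9.64 and 6.97, followed by 7.56 and 7.82 in GATA2-/- HEs, 16.05 and 11.1 in WT HPCs, and 8.48 and 8.84 in GATA2-/- HPCs. The WT HPCs were highest and did not overlap the GATA2-/- HPCs. The rise over hESCs passed the test in HE (adjusted p = 0.000122) and in HPC (adjusted p = 9.85e-05), and no fold is given against a group listed at 0. CSF2RB entered the test only through its HE and HPC values, so these calls are not independent of the filter. The HE to HPC log2 fold change was 0.64 in WT (adjusted p = 0.270) and 0.15 in GATA2-/- (adjusted p = 0.812). Of the alpha chains that pair with CSF2RB, IL3RA was at 2.7 to 11.99 in HEs and HPCs, CSF2RA at 0.76 to 4.56, and IL5RA at no more than 0.95. The ligand genes IL3 and IL5 were listed at 0 in all 10 libraries, and CSF2, the gene of GM-CSF, reached 1.53 and 0.98 in WT HPCs and 0.0 and 2.15 in GATA2-/- HPCs.

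IL6ST, the signal-transducing chain gp130 of the IL-6 family (ENSG00000134352, chromosome 5 from 55230923 to 55290850, minus strand), was the most abundant receptor chain among the members in HEs and HPCs. Its TPM was 2.49 and 3.05 in hESCs, 64.28 and 66.16 in WT HEs, 58.43 and 33.92 in GATA2-/- HEs, 94.8 and 60.73 in WT HPCs, and 126.99 and 87.91 in GATA2-/- HPCs. Both GATA2-/- HEs were below both WT HEs, and the HPCs of the genotypes overlapped. From hESC to HE it rose by 3.60 on the log2 scale (standard error 0.31, adjusted p = 6.19e-05). From HE to HPC it rose by 1.23 in GATA2-/- (standard error 0.31, adjusted p = 0.0343), against 0.22 in WT (standard error 0.31, adjusted p = 0.761). The rise in GATA2-/- lost its call when any 1 of 7 libraries was left out, most of all without GATA2-/- HE replicate 2 (0.84, adjusted p = 0.202). The difference between the stage changes of the genotypes, tested as an interaction, was 1.01 (95% interval 0.01 to 2.01, unadjusted p = 0.0483, adjusted p = 0.840), so it did not pass. Within 30-base windows, 6.06% of the IL6ST transcript also occurs in other genes, 3.52% in the pseudogene IL6STP1, so some reads could have been counted to either.

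IL2RG, the common gamma chain (ENSG00000147168, chromosome X from 70327254 to 70331958, minus strand), stayed low. Its TPM was 0.94 and 0.18 in hESCs, listed at 0 in both WT HEs, 0.06 and 0.37 in GATA2-/- HEs, 1.12 and 1.0 in WT HPCs, and 1.14 and 1.98 in GATA2-/- HPCs. The 4 HPC values were highest, and the HE values were at or below 0.37. The log2 fold change from HE to HPC in GATA2-/- was 1.07 (standard error 0.38, adjusted p = 0.109), and none is given for WT. In the annotation, 69.0% of the 30-base windows of IL2RG also lie in the overlapping gene ENSG00000285171, which has no row in the files. Of the chains that pair with IL2RG, IL4R was abundant in HEs at 29.33 to 64.3, while IL7R did not exceed 2.14, IL2RB 5.53 and IL21R 2.52 in any library. FLT3 (ENSG00000122025, chromosome 13 from 28577411 to 28674729, minus strand) had 0.23 and 0.27 in hESCs and was listed at 0 in the 8 HE and HPC libraries. It did not pass the filter and is the member that was not tested.

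JAK2, the kinase bound to EPOR and CSF2RB (ENSG00000096968, chromosome 9 from 4984390 to 5129948, plus strand), had a TPM of 5.12 and 0.83 in hESCs, 5.16 and 7.45 in WT HEs, 7.65 and 4.59 in GATA2-/- HEs, 10.94 and 10.16 in WT HPCs, and 12.83 and 12.75 in GATA2-/- HPCs. The hESC libraries differed widely between themselves, and all 4 HPC values were above all other values. From hESC to HPC it rose by 2.04 on the log2 scale (standard error 0.52, adjusted p = 0.0173), a call lost without hESC replicate 2 (1.17, adjusted p = 0.0748) and without either GATA2-/- HPC replicate. From HE to HPC the log2 fold change was 0.68 in WT (adjusted p = 0.521) and 0.99 in GATA2-/- (adjusted p = 0.272). JAK2 was a small part of the JAK family: of the summed TPM of JAK1, JAK2, JAK3 and TYK2 it made up 2.54% to 4.07% in HEs and 5.01% to 6.94% in HPCs. TYK2, at 97.28 to 145.31 in HEs and HPCs, was the most abundant JAK gene there, and JAK1 was at 39.84 to 59.43. JAK1, JAK3 and TYK2 rose from hESC to HE by 2.27, 2.33 and 2.03 on the log2 scale (adjusted p = 7.58e-05, 0.00114 and 0.000138).

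STAT5A and STAT5B lie next to each other on chromosome 17 in opposite directions, STAT5A (ENSG00000126561) from 40439565 to 40463961 on the plus strand and STAT5B (ENSG00000173757) from 40351194 to 40440651 on the minus strand, and their annotated ends overlap by 1087 bases. They encode closely related factors, and 18.7% of the 30-base windows of STAT5A and 13.8% of those of STAT5B occur in both transcripts. The sources used here do not say that counting used strand, so the split of shared reads between them is uncertain. STAT5A had a TPM of 3.88 and 8.13 in hESCs, 30.61 and 32.85 in WT HEs, 38.98 and 29.59 in GATA2-/- HEs, 86.64 and 66.95 in WT HPCs, and 56.06 and 54.61 in GATA2-/- HPCs. Each step upward was free of overlap, and the WT HPCs stood above the GATA2-/- HPCs. STAT5A rose from hESC to HE by 2.39 on the log2 scale (standard error 0.30, adjusted p = 0.000430). It rose from HE to HPC in WT by 1.24 (standard error 0.30, adjusted p = 0.0326), with 0.69 in GATA2-/- (standard error 0.30, adjusted p = 0.178). The difference between those changes was -0.55 (95% interval -1.50 to 0.40, adjusted p = 0.913). The WT call was lost without either WT HE library, either WT HPC library or either GATA2-/- HPC library, with adjusted p up to 0.160 (without WT HPC replicate 1, log2 fold change 1.05).

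STAT5B had a TPM of 24.87 and 25.43 in hESCs, 57.71 and 42.37 in WT HEs, 66.1 and 49.93 in GATA2-/- HEs, 58.45 and 57.08 in WT HPCs, and 72.49 and 66.74 in GATA2-/- HPCs. It rose from hESC to HE by 1.16 on the log2 scale (standard error 0.20, adjusted p = 0.00273). In WT its HE and HPC values overlapped, and in GATA2-/- both HPC values were above both HE values. Between HE and HPC its log2 fold change was 0.22 in WT (adjusted p = 0.596) and 0.27 in GATA2-/- (adjusted p = 0.449). The ratio of STAT5A to STAT5B TPM within a library was 0.156 and 0.320 in hESCs, 0.530 and 0.775 in WT HEs, 0.590 and 0.593 in GATA2-/- HEs, 1.48 and 1.17 in WT HPCs, and 0.773 and 0.818 in GATA2-/- HPCs. Only in WT HPCs did STAT5A exceed STAT5B, and the GATA2-/- HPC ratios overlapped those of WT HEs. These ratios carry no test. The summed TPM of both genes was 124.03 and 145.09 in WT HPCs and 121.35 and 128.55 in GATA2-/- HPCs, overlapping ranges. STAT5A and STAT5B together made up 20.1% to 22.2% of the summed STAT TPM in hESCs, 31.4% to 39.9% in HEs and 37.4% to 41.7% in HPCs.

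**Figure D2:**
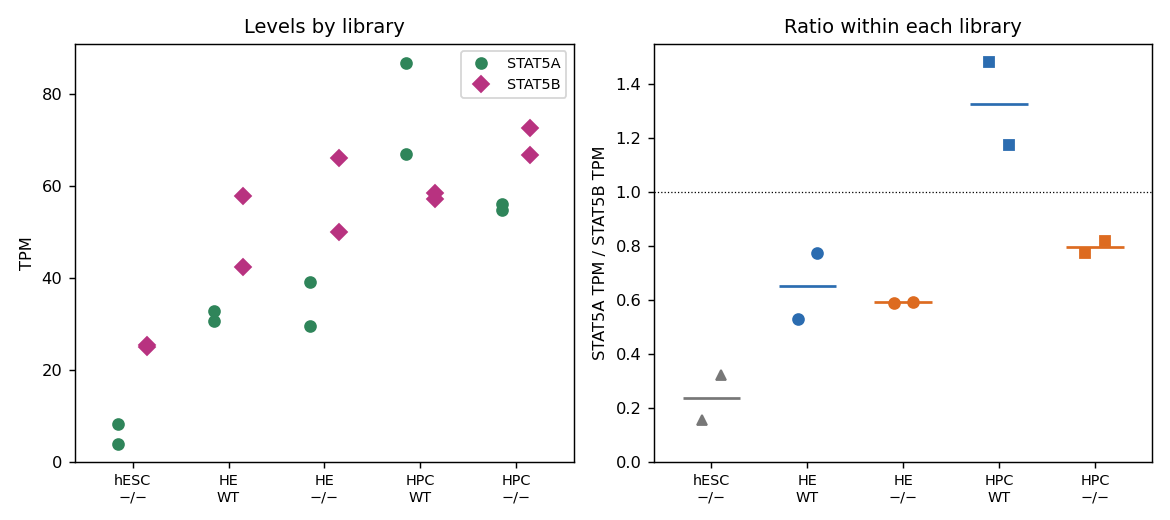
TPM of STAT5A and STAT5B in each library (left, vertical axis from 0) and the ratio of the STAT5A to the STAT5B value within a library with the mean of 2 libraries as a bar (right, dotted line at a ratio of 1), by group. The ratio lies above 1 only in the 2 WT HPC libraries, at 1.48 and 1.17, with 0.773 and 0.818 in GATA2-/- HPCs.

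SOCS2, an inhibitor of growth hormone and related receptors and itself a STAT5 target (ENSG00000120833, chromosome 12 from 93963590 to 93977263, plus strand), was lowest in HE. Its TPM was 18.33 and 15.95 in hESCs, 5.98 and 4.07 in WT HEs, 3.57 and 2.19 in GATA2-/- HEs, 9.37 and 12.49 in WT HPCs, and 17.4 and 9.63 in GATA2-/- HPCs. The GATA2-/- HEs were below the WT HEs, and all HEs were below all HPCs. From hESC to HE it fell by 2.25 on the log2 scale (standard error 0.36, adjusted p = 0.00174), and from HE to HPC in GATA2-/- it rose by 1.87 (standard error 0.36, adjusted p = 0.0104). Without GATA2-/- HE replicate 2 the rise was 1.61 (adjusted p = 0.0804), and without GATA2-/- HPC replicate 1 it was 1.48 (adjusted p = 0.0628). In WT the log2 fold change was 0.99 (standard error 0.36, adjusted p = 0.134). The difference between the stage changes of the genotypes was 0.88 (95% interval -0.27 to 2.04, adjusted p = 0.882).

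CISH, the SOCS-family inhibitor whose promoter is printed above (ENSG00000114737, chromosome 3 from 50643920 to 50649205, minus strand), had a TPM of 1.54 and 1.68 in hESCs, 5.12 and 3.27 in WT HEs, 2.76 and 1.85 in GATA2-/- HEs, 8.18 and 6.38 in WT HPCs, and 4.92 and 5.23 in GATA2-/- HPCs. At each stage both GATA2-/- values were below both WT values, and the WT HEs overlapped the GATA2-/- HPCs. From hESC to HPC it rose by 1.22 on the log2 scale (standard error 0.34, adjusted p = 0.0254), a call lost when any hESC or GATA2-/- HPC library was left out (adjusted p from 0.0686 to 0.0940). For the step from HE to HPC the log2 fold change was 0.69 in WT (adjusted p = 0.288) and 0.89 in GATA2-/- (adjusted p = 0.131). The ratio of CISH to SOCS2 TPM was 0.084 and 0.105 in hESCs, 0.773 to 0.856 in the 4 HEs, 0.873 and 0.511 in WT HPCs, and 0.283 and 0.543 in GATA2-/- HPCs. In hESCs SOCS2 was above every HE value and CISH below every HE value.

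**Figure D3:**
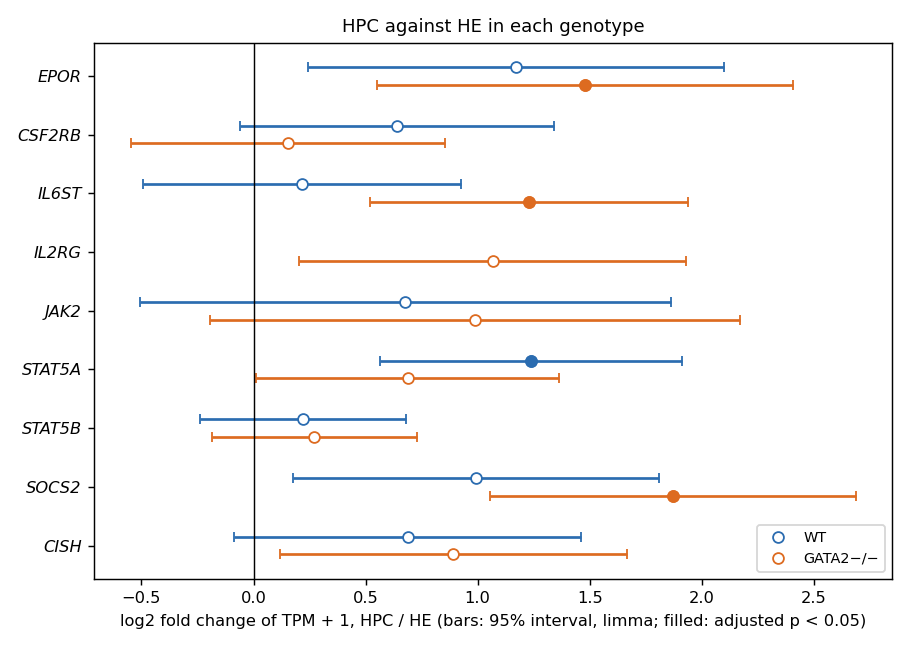
Log2 fold change of TPM + 1 from HE to HPC (horizontal axis) for the 9 tested genes in WT and GATA2-/-, with 95% intervals from limma and filled points where the adjusted p was under 0.05. No WT value is drawn for IL2RG, which was listed at 0 in WT HEs. STAT5A is filled in WT at 1.24, and EPOR at 1.48, IL6ST at 1.23 and SOCS2 at 1.87 are filled in GATA2-/-.

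Set against undifferentiated GATA2-/- hESCs, much of the pathway was higher in the blood-forming cells. In HE, CSF2RB, IL6ST, STAT5A and STAT5B rose, which is 4 of 9 tested members where 13.9% of all tested genes rose, and SOCS2 was the 1 member that fell, where 16.1% of all tested genes fell. In HPC, 7 of 9 rose (EPOR, CSF2RB, IL6ST, JAK2, STAT5A, STAT5B and CISH), against 14.2% of all tested genes. CSF2RB, listed at 0 in hESCs, entered the test only through HEs and HPCs, so its place in both counts is not independent of the filter. In HPC, SOCS2 was close to its hESC level (log2 fold change -0.37, 95% interval -1.19 to 0.44, adjusted p = 0.479), and IL2RG had 0.74 (adjusted p = 0.183). For EPOR and JAK2 the hESC values decided the HE comparison: the log2 fold change of EPOR went from 0.69 (adjusted p = 0.252) to 1.36 (adjusted p = 0.0340) without hESC replicate 2, and that of JAK2 from 1.06 (adjusted p = 0.170) to 1.93 (adjusted p = 0.0192) without hESC replicate 1. Both comparisons use the same hESC libraries, and the members were chosen with earlier results of these data known.

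Between the genotypes, no member passed the test at either stage. In HE the count was 0 of 9, where 0.0186% of all tested genes (4 genes) passed, and in HPC it was 0 of 9, where 0.0603% (13 genes) passed. No member had an unadjusted p under 0.05 in either comparison, while 1045 genes in HE and 1925 genes in HPC did. The interaction of stage and genotype was called for 0% of all tested genes, with 1281 genes at an unadjusted p under 0.05, of which IL6ST was the 1 member. Leaving out IL2RG, the fitted differences in HE of GATA2-/- from WT ran from -0.64 for CISH (95% interval -1.42 to 0.13) and -0.64 for SOCS2 (-1.46 to 0.18) to 0.21 for STAT5B (-0.25 to 0.67). In HPC they ran from -0.57 for CSF2RB (-1.27 to 0.13) to 0.48 for EPOR (-0.45 to 1.40). In HPC the interval of every tested member except STAT5B reached beyond 1 on the log2 scale, so differences of that size were not excluded. STAT5B had the narrowest interval in HPC, from -0.19 to 0.72, and JAK2 the widest, from -0.93 to 1.44.

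The libraries of the genotypes were nevertheless free of overlap for several members. In HE, IL6ST, SOCS2 and CISH were lower in both GATA2-/- libraries, a pattern held by 16.5% of all tested genes, and IL2RG was higher in both, as were 13.8%. The erythroid markers summed lower in GATA2-/- than in WT HEs (above), as did the 6 megakaryocyte markers (35.6 to 60.5 against 108 to 129) and the 9 myeloid markers (17.1 to 27.8 against 35.3 to 37.3), each without overlap. Of the marker genes of all lists, PF4, the platelet factor gene, was the only 1 past the threshold between genotypes in HE. It was at 3.66 and 4.7 against 37.33 and 32.12 in WT (adjusted p = 0.0249). The PF4 call was lost with only the compared libraries and with a block by a mark in the file headers. No gene passed between genotypes in HE under either setting. Leaving out any hESC, HE or GATA2-/- HPC library also ended the PF4 call. In HPC, CSF2RB, STAT5A and CISH were lower in both GATA2-/- libraries, as were 13% of all tested genes, and EPOR, IL2RG, JAK2 and STAT5B were higher in both, as were 19.7%. Megakaryocyte markers were again lower in GATA2-/- HPCs (913 to 1378 against 1481 to 1684), while the erythroid and myeloid sums overlapped. The part of these markers in the members' values was not tested. At both stages alike, CISH was lower in GATA2-/-, which held for 2.93% of all tested genes, and IL2RG was higher, which held for 3.37%. The IL2RG values lay near 0, so their order says little. In HE they were 0.06 and 0.37 in GATA2-/- and listed at 0 in WT. In HPC they were 1.14 and 1.98 in GATA2-/- against 1.12 and 1.0 in WT. GATA2-/- HPCs also had the highest share of TPM from mitochondrial genes. When TPM was rescaled over the genes outside the mitochondrial genome, the median of all genes in the HPC comparison moved from 0.05 to 0.13 on the log2 scale and no member passed in it.

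**Figure D4:**
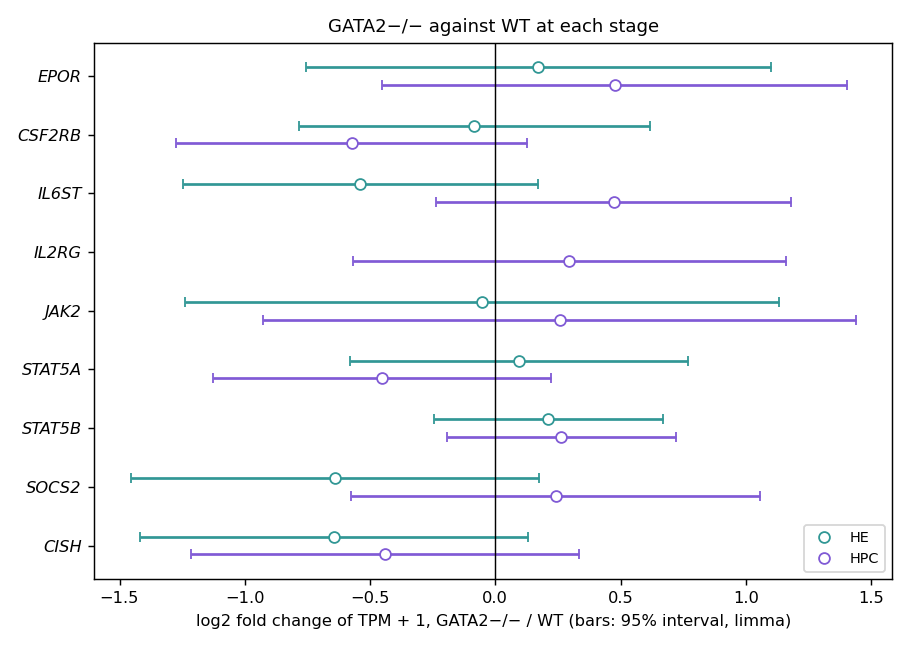
Log2 fold change of TPM + 1 of GATA2-/- over WT (horizontal axis) for the 9 tested genes in HEs and HPCs, with 95% intervals from limma. No HE value is drawn for IL2RG, which was listed at 0 in WT HEs. All intervals drawn include 0, from -0.64 for CISH in HE to 0.48 for EPOR in HPC.

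The other genes of the pathway were followed as 6 lists. Of 21 tested receptor chains beside the members, 1 rose and 5 fell from HE to HPC in WT, and 2 rose and 4 fell in GATA2-/-, with medians of -0.52 and 0.01. Of all tested genes, 6.59% fell from HE to HPC in WT and 7.24% in GATA2-/-, beside the 3.32% and 5.5% that rose, and the counts of the other lists stand beside the same shares. From hESC to HE 12 of the receptor chains rose and none fell, where 13.9% of all tested genes rose.

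Several chains that pair with IL6ST fell from HE to HPC. CNTFR, the ciliary neurotrophic factor receptor, was at 24.9 and 15.45 in WT HEs and 2.42 and 1.0 in WT HPCs, and it fell by 2.98 on the log2 scale (adjusted p = 0.00441) in WT and fell by 3.05 (adjusted p = 0.00320) in GATA2-/-. LIFR, the LIF receptor, was at 25.24 and 25.17 in WT HEs and 4.82 and 1.09 in WT HPCs, and it fell by 2.91 (adjusted p = 0.00821) and fell by 2.70 (adjusted p = 0.00952). LIFR lost its call without either WT HE library in WT (adjusted p up to 0.0641), and without GATA2-/- HE replicate 2 or GATA2-/- HPC replicate 2 in GATA2-/- (adjusted p up to 0.0858). OSMR, the oncostatin M receptor, fell by 2.32 in WT (adjusted p = 0.0104) and had -0.73 in GATA2-/- (adjusted p = 0.327). IL11RA did not pass in either genotype, and it stood at 25.0 to 34.86 in HEs and 33.86 to 58.54 in HPCs. IL6R did not exceed 3.15 in any library. IL4R, a chain that pairs with IL2RG, went from 35.41 and 29.33 to 4.87 and 10.95 in WT and from 64.3 and 48.37 to 2.43 and 4.91 in GATA2-/-. It fell by 1.99 (adjusted p = 0.0139) and fell by 3.66 (adjusted p = 0.000670), and the WT call was lost without either WT HE library or WT HPC replicate 1 (adjusted p up to 0.0968) and with a block by a mark in the file headers (0.0631). The 9 stromal genes summed to 410 to 720 in HEs and 108 to 249 in HPCs. From HE to HPC 3 of them fell, 1 rose and 5 were not called in WT. In GATA2-/- 3 fell, 0 rose and 6 were not called. All 12 endothelial genes fell in both genotypes, where 6.59% of all tested genes fell in WT and 7.24% in GATA2-/-. The part of either list in the falls of these receptor chains was not tested.

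**Figure D5:**
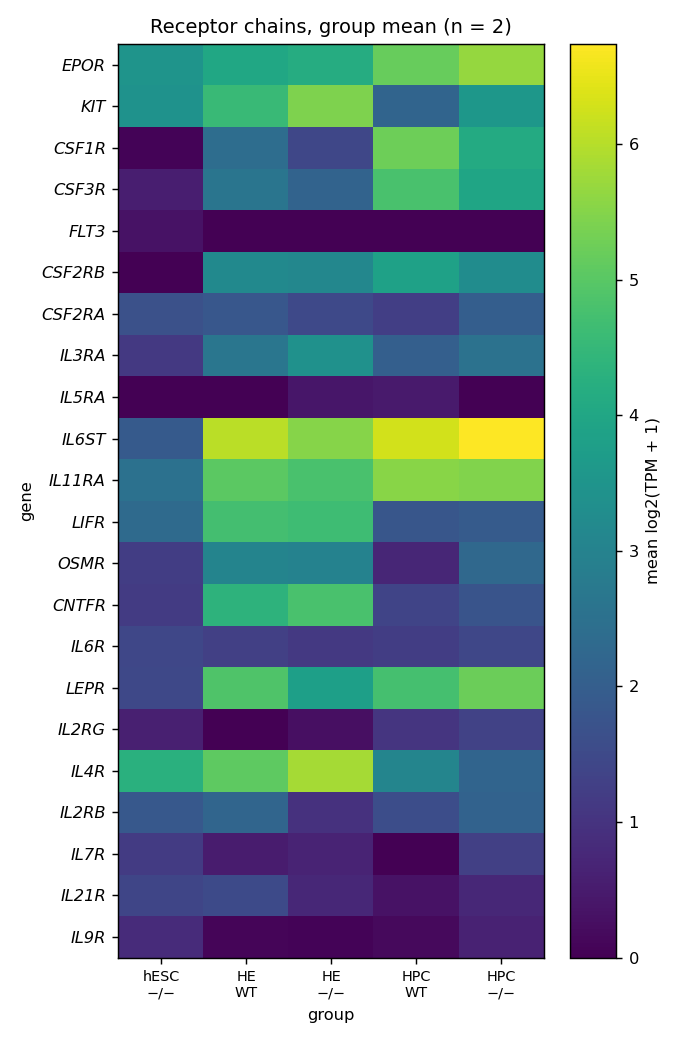
Group mean of log2(TPM + 1) over 2 libraries (colour) for 22 receptor genes, the 5 receptor members among them, in the 5 groups. Partner chains of CSF2RB, IL6ST and IL2RG follow each of them, and LEPR, between IL6R and IL2RG, is not meant as a partner. IL6ST is the brightest row in WT HEs and in both HPC groups, IL4R is brighter in GATA2-/- HEs, and LIFR and CNTFR, which pair with IL6ST, darken from HE to HPC, and the IL5RA and FLT3 rows stay near 0.

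Among the receptor tyrosine kinases of blood progenitors, KIT, the stem cell factor receptor, fell and CSF1R, the macrophage colony-stimulating factor receptor, rose. KIT went from 21.81 and 23.18 to 4.02 and 3.04 in WT and from 45.18 and 40.1 to 8.48 and 13.72 in GATA2-/-. It fell by 2.38 (adjusted p = 0.00103) and fell by 1.88 (adjusted p = 0.00248). Both GATA2-/- KIT values were above both WT values at each stage, and neither difference passed (0.89, adjusted p = 0.793 in HE, and 1.39, adjusted p = 0.205 in HPC). CSF1R, also 1 of the 9 myeloid markers, went from 6.92 and 2.55 to 40.37 and 34.05 in WT and from 2.4 and 1.18 to 9.7 and 27.5 in GATA2-/-. It rose by 2.84 (adjusted p = 0.0118) and by 2.68 (adjusted p = 0.0127). The CSF1R calls were lost without WT HE replicate 2 or either WT HPC replicate in WT (adjusted p up to 0.0940), and without GATA2-/- HE replicate 2 or GATA2-/- HPC replicate 2 in GATA2-/- (up to 0.0975). A block by a mark that the file headers of replicate 2 of all HE and HPC groups share, whose meaning is not stated, ended both CSF1R calls (adjusted p = 0.0712 in WT and 0.0681 in GATA2-/-). The myeloid markers summed to 17.1 to 37.3 in HEs and 138 to 182 in HPCs, with CD14, ELANE and FCGR3A listed at 0 in the HPCs of both genotypes.

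Of 11 tested ligand genes, none rose from HE to HPC, 1 fell in WT and 2 fell in GATA2-/-. KITLG, the gene of stem cell factor, fell in both: it was at 49.04 and 36.8 in WT HEs and 2.7 and 0.95 in WT HPCs, and at 75.06 and 62.94 and then 4.41 and 3.76 in GATA2-/-. It fell by 4.02 (adjusted p = 0.00183) and fell by 3.78 (adjusted p = 0.00197). KIT and its ligand gene were thus both lower in HPC than in HE. None of the 8 other JAK and STAT genes passed from HE to HPC in either genotype, with medians of 0.17 and 0.20. From hESC 4 of them rose in HE, where 13.9% of all tested genes rose, and 5 in HPC, where 14.2% rose.

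Of 17 tested negative regulators, 1 rose and 1 fell from HE to HPC in each genotype. PTPN6, the phosphatase SHP-1, which binds the EPO receptor and dephosphorylates JAK2, went from 29.02 and 26.47 to 203.64 and 151.03 in WT and from 15.62 and 11.51 to 76.75 and 112.51 in GATA2-/-. It rose by 2.62 (adjusted p = 0.000742) and by 2.70 (adjusted p = 0.000511). Both GATA2-/- PTPN6 values were below both WT values at each stage, and neither difference passed the test (adjusted p = 0.652 in HE and 0.340 in HPC). SOCS3, the inhibitor that binds gp130, went from 74.14 and 79.35 to 10.93 and 8.28 in WT and from 46.8 and 71.64 to 11.88 and 9.82 in GATA2-/-. It fell by 2.88 (adjusted p = 0.000535) and fell by 2.32 (adjusted p = 0.000824). SOCS2 and SOCS3 thus had opposite signs between HE and HPC in these libraries.

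Of 10 tested STAT5 target genes beside the members, 2 rose and 1 fell in WT, and 3 rose and 3 fell in GATA2-/-, with medians of 0.29 and 0.45. TFRC, the transferrin receptor, went from 33.58 and 28.89 to 103.26 and 108.1 in WT and from 41.62 and 30.67 to 131.27 and 204.11 in GATA2-/-, and it rose by 1.73 (adjusted p = 0.00247) and by 2.16 (adjusted p = 0.000722). PIM2, a survival kinase, went from 5.26 and 3.38 to 9.2 and 12.19 in WT and from 2.74 and 3.01 to 20.31 and 18.58 in GATA2-/-. It rose by 1.15 (adjusted p = 0.0254) and by 2.40 (adjusted p = 0.000706), but hESCs were far above both stages at 194.31 and 159.67. ID1, an inhibitor of helix-loop-helix factors, fell by 1.18 (adjusted p = 0.0325) and fell by 2.24 (adjusted p = 0.00140). The WT calls of PIM2 and ID1 were lost with a block by the header mark (adjusted p = 0.0941 and 0.0518) and without some single libraries, with adjusted p up to 0.150 (PIM2, without WT HE replicate 2) and 0.199 (ID1, without WT HE replicate 2). No gene of any of the 6 lists passed between genotypes at either stage.

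The likeness of patterns was described with the Pearson correlation of log2(TPM + 1) over the 10 libraries, which share 5 groups of 2, so it mostly follows the differences between stages. Among the members, CSF2RB and IL6ST had r = 0.961, CSF2RB and STAT5A 0.953, and IL6ST and STAT5A 0.946. SOCS2 was unlike the rest, with r from -0.458 to 0.554 against the other tested members. Outside the members, CSF2RB was most like GADD45A (0.993), VAV1 (0.993) and FAM214B (0.991), and IL6ST most like RCOR1 (0.994), ZEB2 (0.994) and ST3GAL5 (0.993). STAT5A was most like RAC2 (0.994), CTB-13H5.1 (0.994) and CD58 (0.991), and STAT5B most like CCNL2 (0.99), KCP (0.989) and RP11-1376P16.2 (0.988). EPOR was most like PNPLA7 (0.964), EIF2S3L (0.961) and MAN2B2 (0.960). JAK2 was most like the mitochondrial tRNA gene MT-TK (0.966), MED17 (0.963) and RMDN3 (0.938). SOCS2 was most like TRAPPC10 (0.985), CCDC144NL (0.974) and CBX6 (0.971), and CISH most like UNC13D (0.983), SMARCC2 (0.982) and GSTA2 (0.980). For IL2RG, whose values lie near 0, they were MTRNR2L3 (0.963), GRIK4 (0.920) and FAM151B (0.918).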

How the data were processed

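Members and gene lists were chosen with earlier results of these data known. RNA-Seq of 10 libraries was used. The authors made TruSeq libraries from total RNA, sequenced short single-end reads of 30 to 50 bases, trimmed adapters and mapped to hg19 with Bowtie. The submitters' processing notes also name RSEM and mm10 without a role. The deposited values are TPM per gene. Cuffdiff, the test of the authors, needs alignments and was not repeated.

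Values were taken as log2(TPM + 1) and fitted in R 4.3.3 with lmFit, contrasts.fit and eBayes (with trend) of limma 3.58.1, two-sided at an adjusted p under 0.05, with 5 groups in 1 fit and only genes that reached TPM 1 in 2 or more libraries. The procedure was tested on simulated data. Read depth is unknown, so no counting error is given.

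Named beside the members were up to 4 genes per list with the largest log2 fold change past the threshold from HE to HPC in both genotypes with the same sign, any list gene past it between genotypes, and the 3 genes most like each member. Other genes are named as partner chains, ligands or family members, some chosen after their values were seen. IFNAR2, whose symbol has 2 rows, was left out of its list. A gene that the rule names is not reported here. Positions and shared windows come from GENCODE v44 on GRCh37, promoters from RefSeq. Alternatives were another pseudocount (0.1), no filter or a TPM of at least 5, only the compared libraries, quantile normalization, eBayes without trend, a replicate block and each library left out. A rescaling outside the mitochondrial genome and a block by a header mark were added after seeing the data.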

Additional observations from a re-analysis of the deposited data

How the results depend on the processing

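Directions of called members held under every alternative run. From HE to HPC in WT the count of members past the threshold was 1, and it was 0 with a pseudocount of 0.1, with no filter, with only the compared libraries and without the variance trend, and 0 to 1 with 1 library left out. In GATA2-/- it was 3, and 1 with no filter, 0 with only the compared libraries, 1 without the trend, and 0 to 2 with 1 library left out. With only the compared libraries, no gene at all passed from HE to HPC in either genotype, although 4423 and 5040 genes had an unadjusted p under 0.05. That fit has 4 libraries. From hESC to HE the count was 5, with 5 to 6 when 1 library was left out, and from hESC to HPC it was 7, 4 with only the compared libraries and 5 to 7 with 1 library left out. Between genotypes and for the interaction the count was 0 under all alternatives run.

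Adjusted p of STAT5A in WT was 0.0326, and 0.0520 with a pseudocount of 0.1, 0.0613 with no filter, 0.0906 with only the compared libraries and 0.0610 without the trend. In GATA2-/-, EPOR had 0.0640, 0.0891, 0.122 and 0.0755 under the same settings, IL6ST lost its call under the last 3 (0.0662, 0.197 and 0.0658), and SOCS2 only with the compared libraries alone (0.141).

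The labels give the replicate numbers no meaning, but the file headers of replicate 2 of the HE and HPC groups share a mark whose meaning is not stated. Deviations of same-numbered libraries correlated at 0.123 between HEs and 0.0551 between HPCs, and at -0.0141 to 0.0317 in the other group pairs, so the numbers were not taken to pair the libraries. With a replicate block the members past the threshold were 1 and 2 from HE to HPC in WT and GATA2-/- (EPOR then had an adjusted p of 0.0594), 5 and 7 against hESC in HE and HPC, and 0 between genotypes. With a block by the header mark, over the 8 HE and HPC libraries, they were 1 and 3 from HE to HPC and 0 between genotypes. The calls that IL4R, CSF1R, PIM2, ID1 and PF4 lost with it are given beside their values. Rescaling TPM outside the mitochondrial genome changed no call of a member. It moved the counts of genes that rose and fell from HE to HPC in GATA2-/- from 1185 and 1560 to 1552 and 1346, and the median of all genes there from 0.03 to 0.13 on the log2 scale.

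Values that changed sign were never called. The cause was not tested. With 1 library left out, log2 values ranged from -0.10 to 0.53 for IL6ST from HE to HPC in WT, -0.69 to 0.030 for IL2RG from hESC to HE and -0.77 to 0.024 for SOCS2 from hESC to HPC. Between genotypes in HE they ranged from -0.21 to 0.55 for EPOR, -0.29 to 0.12 for CSF2RB, -0.37 to 0.26 for JAK2, -0.10 to 0.29 for STAT5A and -0.0062 to 0.43 for STAT5B, and in HPC from -0.15 to 0.64 for SOCS2. For the interaction they ranged from -0.070 to 0.68 for EPOR, -0.21 to 0.26 for IL2RG, -0.0052 to 0.62 for JAK2, -0.17 to 0.27 for STAT5B and -0.055 to 0.46 for CISH. The interaction of IL2RG, listed at 0 in WT HEs, was -0.98 with a pseudocount of 0.1 and -0.11 after quantile normalization, and that of CISH was -0.016 after quantile normalization. Read depth is unknown, and 2 libraries per group limit every value.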
